A study of Cicer arietinum with 11 samples.

Results

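The last 2 flower bud stages of chickpea (Cicer arietinum) were compared with the opening 2 flower stages. The late buds were flower bud 3 and flower bud 4, the early flowers were flower 1 and flower 2, and these 4 libraries were taken by label from the 11 of the series. All came from mature plants of the genotype ICC4958, grown in the field, with 1 mRNA library per stage. The labels give neither plant age nor what separates one numbered stage from the next, and that the numbers follow development is an assumption. The other 7 libraries were flower buds 1 and 2, flowers 3 and 4, and 3 vegetative tissues of the same genotype: germinating seedling from a culture room, young leaves of mature plants, and shoot apical meristem taken from plants aged 20 days. Expression was deposited as RPKM, which scales the reads of a transcript by its length and by the library's mapped reads. Library totals recovered from those values were 35643139 reads for flower bud 3, 29706745 for flower bud 4, 24784511 for flower 1 and 29207580 for flower 2.

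A legume flower bud encloses sepals, petals, stamens and a carpel, and during the late bud stages anthers mature their pollen while the petals are still folded. Chickpea largely pollinates itself inside the closed bud, shortly before the flower opens. In the open flower the petals expand fully and later wither, and the fertilised ovary begins to grow into the pod. The files do not pair the transcript IDs with gene names, and none of the IDs were found in the reference table, so no marker gene of petal, anther, pollen or carpel could be checked against the stage labels. Only IDs are therefore used, and nothing is said of the proteins they may encode. In whole organs, fewer cells of a type and less RNA per cell cannot be told apart.

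A transcript was taken as different where both early flowers lay on the same side of both late buds and the means of log2(RPKM + 1) differed by at least 1. By this rule 1870 of 31776 tested transcripts were higher in early flowers (5.88%) and 1584 were lower (4.98%), together 10.9%. Separation without regard to size was common, with 57.9% of tested transcripts not overlapping between the sides, so the size of the difference did most of the selecting. The differences were mostly moderate. Their median was 1.38 on the log2 scale for higher and -1.39 for lower transcripts, against -0.06 over all tested transcripts. A difference of at least 2 was reached by 373 higher and 344 lower transcripts, and one of at least 4 by 25 and 34. At the threshold, the nearest transcript inside differed by 1.0007 and the nearest outside by 0.99994. There were 773 separated transcripts with a difference between 0.9 and 1, and 631 between 1 and 1.1.

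In limma, with the spread estimated between neighbouring stages over the 8 reproductive libraries, 701 transcripts rose (2.21% of tested) and 673 fell (2.12%) at a Benjamini-Hochberg adjusted p under 0.05. All of these also met the rule. Each stage was 1 library, so these p-values measure the spread between neighbouring stages and not between plants. The number of calls rested on individual libraries, and most on flower 2. Without it limma called 0 higher and 1 lower transcript, with 3372 at an unadjusted p under 0.05. Without flower 1 there were 51 higher and 60 lower calls, without flower bud 3 there were 81 and 81, and without flower bud 4 there were 595 and 552. In these fits the lone library of a side is assumed to vary like the other stages. By the rule, which sets no p, the counts ran from 1825 to 2679 higher and from 1565 to 2600 lower when each of the 4 libraries was left out in turn, and 2600 was the count without flower bud 4.

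The largest rise was in Ca_TC14751. It had 1.13 RPKM in flower bud 3, 3.71 in flower bud 4, 381 in flower 1 and 646 in flower 2. Both flowers were far above both buds, and the log2 difference was 7.30 ± 0.46 (SE; limma, adjusted p = 0.00216; 0.0527 without flower 2). Flowers 3 and 4 held it at 337 and 213 RPKM. The next largest was Ca_TC22646, with 0.434 and 0.223 RPKM in flower buds 3 and 4, which were 7 and 3 reads, and 65.0 and 113 RPKM in flowers 1 and 2. The log2 difference of Ca_TC22646 was 6.03 ± 0.97 (SE; limma, adjusted p = 0.0180), and the call was lost without any 1 of the 4 libraries (adjusted p of 0.0574 to 0.167). This transcript had 0 reads in flower buds 1 and 2, 40.4 RPKM in flower 3 and 2.31 in flower 4, so its high values were those of flowers 1 to 3.

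The largest fall was in Ca_TC27513, with 576 RPKM in flower bud 3, 255 in flower bud 4, 0.566 in flower 1 and 0.80 in flower 2. The flower minus bud difference was -7.84 ± 0.49 in log2 units (SE; limma, adjusted p = 0.00216; 0.0527 without flower 2). It had 0 RPKM in all 3 vegetative libraries. The next was Ca_TC30159, with 117 RPKM in flower bud 3, 33.4 in flower bud 4 and 0 reads in both early flowers. Its late bud mean was at least 403-fold above a floor of 3 reads over both early flowers, and the limma adjusted p was 0.00383 (0.0606 without flower 2). It also had 0 reads in the 3 vegetative libraries, and 0.165 and 0.269 RPKM in flowers 3 and 4.

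Among the 701 transcripts that limma called higher, Ca_TC15198 and Ca_TC04904 had the highest mean RPKM in early flowers. Ca_TC15198 had 26.7 and 69.6 RPKM in flower buds 3 and 4, against 1451 and 1705 in flowers 1 and 2 (log2 difference 5.15 ± 0.47, SE; limma, adjusted p = 0.00407; 0.0616 without flower 2). It stood at 342 RPKM in flower 3 and 161 in flower 4. Ca_TC04904 had 214 and 330 RPKM in the late buds and 1456 and 1259 in the early flowers (log2 difference 2.35 ± 0.30, SE; limma, adjusted p = 0.00907). Its call was lost without flower bud 3, flower 1 or flower 2 (adjusted p of 0.0664 to 0.0901) and in the fit on all 11 libraries (0.228).

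Among the 673 that limma called lower, Ca_TC17125 had the highest mean RPKM in late buds, at 3244 RPKM in flower bud 3, 4202 in flower bud 4, 598 in flower 1 and 354 in flower 2. On the log2 scale this differed by -3.00 ± 0.57 (SE; limma, adjusted p = 0.0291), and no call remained when any 1 of the 4 libraries was left out (adjusted p of 0.0882 to 0.265), with no filter on low values (0.063), or in the fit on all 11 libraries (0.0834). Ca_TC14507 had 1196 and 1794 RPKM in the late buds, and 69.9 and 42.9 in the early flowers (log2 difference -4.72 ± 0.53, SE; limma, adjusted p = 0.00657; 0.0804 without flower 2). From flower bud 1 to flower bud 4 its values were 123, 428, 1196 and 1794 RPKM, followed by 69.9, 42.9, 2.27 and 1.77 in flowers 1 to 4. Its highest library was thus the one just before the drop.

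**Figure D1:**
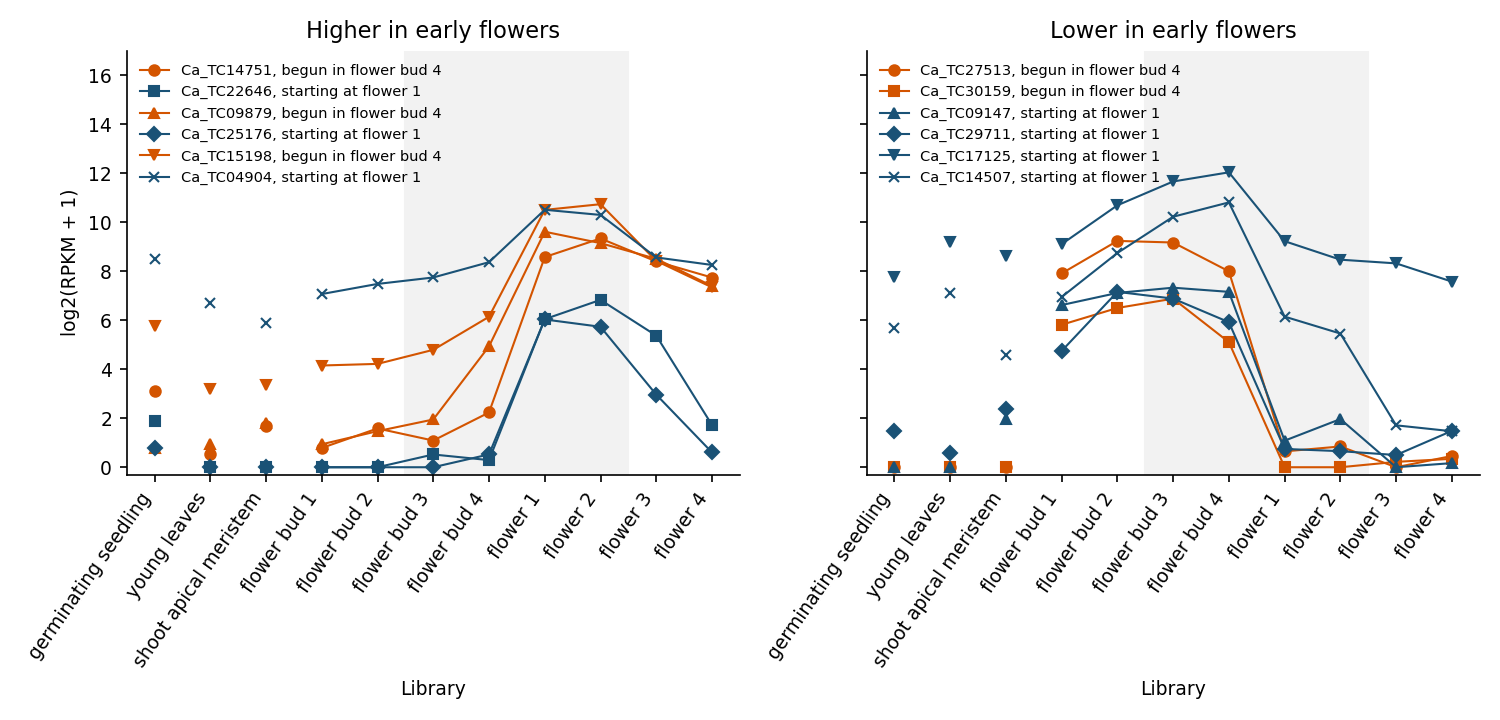
log2(RPKM + 1) of the 12 named transcripts in each of the 11 libraries, with 1 point per library, lines joining the 8 reproductive stages and the 4 compared libraries shaded. In every line the step between flower bud 4 and flower 1 is the steepest, also for transcripts counted as begun in flower bud 4, and Ca_TC22646 and Ca_TC25176 return to 2.31 and 0.521 RPKM in flower 4. The 12 were chosen for large differences or high levels among limma calls, which favours a steep step between flower bud 4 and flower 1.

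The largest movement inside the window fell between flower bud 4 and flower 1. Counted between single libraries, 1333 transcripts were higher by at least 1 on the log2(RPKM + 1) scale in flower bud 4 than in flower bud 3 (4.19%) and 1658 were lower (5.22%). From flower bud 4 to flower 1 there were 1769 up (5.57%) and 1690 down (5.32%). From flower 1 to flower 2 there were 472 up (1.49%) and 198 down (0.623%), 670 in all against 2344 to 6100 at each other step between neighbouring reproductive stages. Across transcripts, which are not independent replicates, Spearman's rho was 0.926 for the pair of late buds, 0.914 for flower bud 4 with flower 1, and 0.973 for the pair of early flowers. The reads of the early flowers differed by a mean chi-square of 23.0 per transcript, where sampling noise alone gives about 1. It was 83.1 for the late buds, 124 for flower bud 4 with flower 1, and 22.1 for flower buds 2 and 3. A mean can be raised by a few abundant transcripts, and what sets these libraries apart was not tested. Steps of at least 2 numbered 222 up and 196 down into flower bud 4, 274 and 280 into flower 1, and 21 and 2 into flower 2. These counts compare single libraries and have no replicate check. The step into flower 3 was larger than any in the window, with 2190 transcripts up (6.89%) and 3910 down (12.3%).

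**Figure D2:**
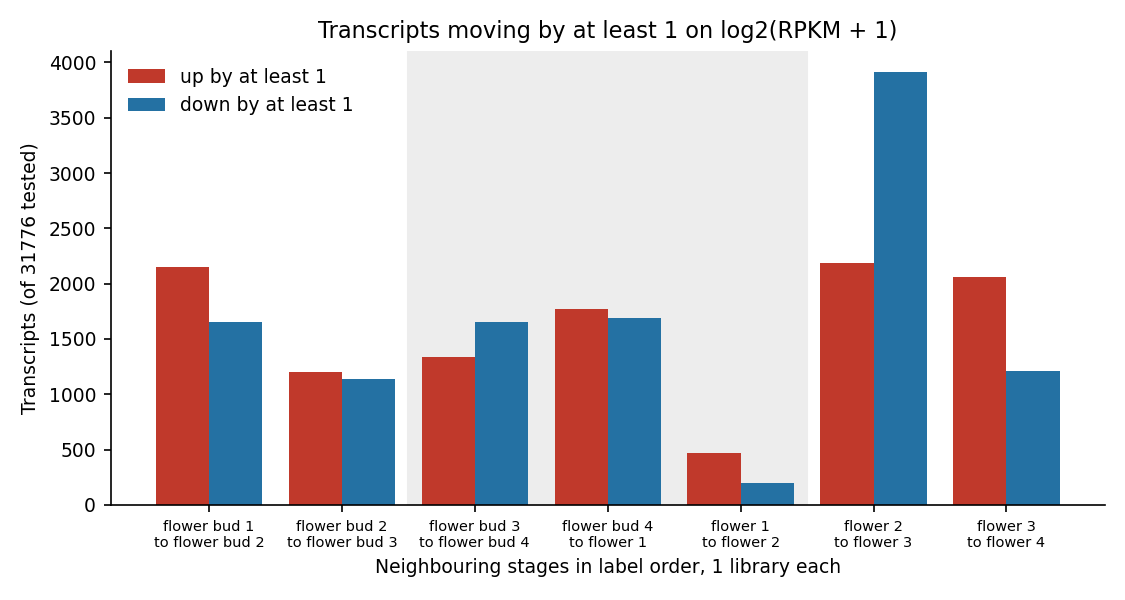
Number of tested transcripts that were higher or lower by at least 1 on log2(RPKM + 1) at each step between neighbouring stages, with the 3 steps of the compared window shaded and 1 library per stage. The step between flowers 1 and 2 has 472 up and 198 down, against 1769 and 1690 from flower bud 4 to flower 1.

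Changes already begun in flower bud 4 were separated from those that started at flower 1 by the step between the buds. A transcript counted as begun where flower bud 4 had moved by at least 1 from flower bud 3 in the direction of the later difference. It counted as starting at flower 1 where the buds were within 1 of each other and flower 1 had moved by at least 1 from flower bud 4. With this threshold, the class starting at flower 1 was the largest, with 1018 of the 1870 higher (54.4%) and 926 of the 1584 lower transcripts (58.5%). Those already begun in flower bud 4 numbered 292 (15.6%) and 283 (17.9%). A further 489 higher and 322 lower transcripts made no step of at least 1 before flower 1, and of these 27 and 14 made one between flowers 1 and 2. The remaining 71 higher and 53 lower transcripts had moved by at least 1 the opposite way in flower bud 4. Flower bud 4 enters both steps, so a value that is off in that library moves a transcript between classes. The rule sets the flowers against the mean of both buds, so a change largely complete in flower bud 4 can fail it. This favours the class starting at flower 1, so the shares describe only transcripts that met the rule.

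The division depended on what counts as begun. With a step of 0.5 in place of 1, 738 higher and 621 lower transcripts were begun in flower bud 4, and 931 and 787 started at flower 1, no longer a majority in either direction. With a pseudocount of 0.1, 1344 of 2798 higher transcripts started at flower 1, also short of a majority, and 1470 of 2552 lower ones. Where begun meant at least 0.25 of the way from flower bud 3 to the early flower mean, they numbered 818 and 681, more than the 624 and 549 that then started at flower 1. With the threshold of 1, the step in flower bud 4 exceeded counting error (95% exact interval) for 290 of the 292 and for all 283 begun transcripts, which covers counting error only. Transcripts begun in flower bud 4 had gone a median 59.9% of the way for the higher and 61.9% for the lower ones. Those starting at flower 1 had gone 7.09% and 4.74%. The classes are defined by this step, so the contrast between them is not a result.

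Transcripts begun in flower bud 4 also had the larger median differences. The step that defines this class enters the difference itself, so this contrast is not a separate result. The median log2 difference was 1.86 for begun and 1.54 for starting transcripts among the higher, and -1.63 and -1.50 among the lower. The higher begun transcripts went from a median log2(RPKM + 1) of 1.70 in flower bud 3 to 3.66 in flower bud 4, 5.08 in flower 1 and 5.11 in flower 2. Their medians were 1.60 and 1.87 in flower buds 1 and 2, and 3.97 and 4.16 in flowers 3 and 4. The higher transcripts that started at flower 1 kept medians of 2.01 to 2.33 over all 4 buds and reached 3.98 and 4.14 in the early flowers, with 3.71 and 3.65 in flowers 3 and 4. The lower begun transcripts had medians of 3.56, 4.08 and 4.14 in flower buds 1 to 3, 2.44 in flower bud 4 and 1.29 to 1.40 in the 4 flowers. The lower transcripts that started at flower 1 had 3.48 to 4.01 in the buds and 2.03 to 2.17 in the flowers. limma called 53.3% of the higher and 56.7% of the lower transcripts starting at flower 1, and 28.1% and 23.7% of the begun ones, whose late buds differ by construction.

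**Figure D3:**
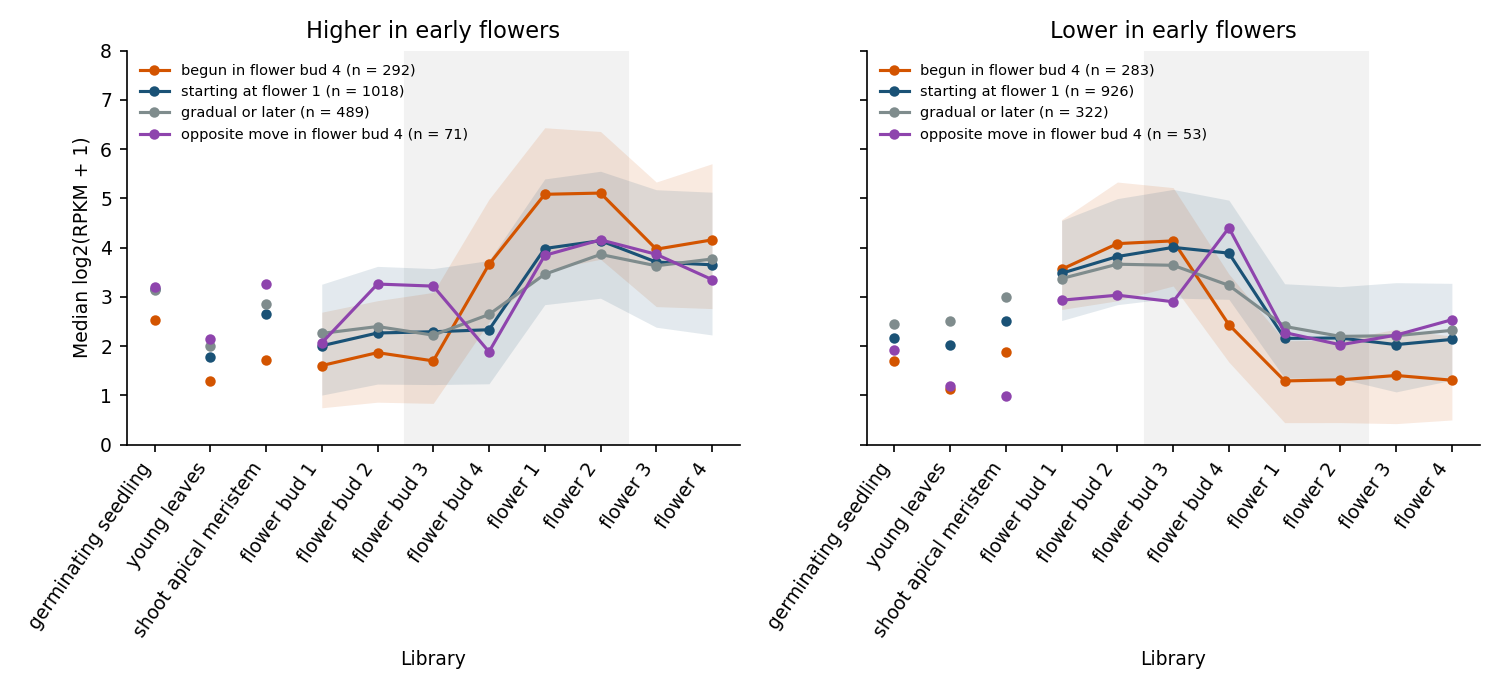
Median log2(RPKM + 1) per library for transcripts higher (left) and lower (right) in early flowers, by where the change began, with the number of transcripts in the key, bands for the interquartile range of the begun and starting classes, and the 4 compared libraries shaded. The begun transcripts stand apart from the starting ones in flower bud 4, at 3.66 against 2.33 among the higher and 2.44 against 3.89 among the lower. The classes are defined by the step into flower bud 4, so this gap is not a separate result.

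Transcripts begun in flower bud 4 are exemplified by those with the largest differences. In Ca_TC09879 the RPKM was 2.86 in flower bud 3, 29.6 in flower bud 4, 782 in flower 1 and 566 in flower 2 (log2 difference 5.94 ± 0.84, SE; limma, adjusted p = 0.0117; 0.0889 without flower 1 and 0.0996 without flower 2). Reads scaled by library total were 10.3 times higher in flower bud 4 than in flower bud 3 (95% interval 8.18 to 13.2, counting error only), yet most of the rise came at flower 1. Ca_TC14751 was also in this class, with a ratio of 3.29 between the buds (2.39 to 4.58). Among the falling ones, Ca_TC27513 stood at 0.442 of its flower bud 3 level in flower bud 4 (0.417 to 0.468) and Ca_TC30159 at 0.286 (0.251 to 0.325). In all 4 the step into flower 1 was the larger, at 6.34 and 4.68 on the log2 scale for Ca_TC14751 and Ca_TC09879, and -7.35 and -5.11 for Ca_TC27513 and Ca_TC30159. They were chosen for large differences between the sides, which favours such a step.

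Of those starting at flower 1, Ca_TC22646 had the largest rise, with the values given above. Ca_TC25176 followed, with 0 reads in flower bud 3, 3 reads or 0.437 RPKM in flower bud 4, 64.5 RPKM in flower 1 and 52.2 in flower 2. Its pooled reads, scaled by library totals, were 291 times higher in early flowers (95% interval 99.1 to 1414, counting error only). The log2 difference was 5.62 ± 0.66 (SE; limma, adjusted p = 0.00738), and the call was lost without flower bud 3, flower 1 or flower 2 (adjusted p of 0.0572 to 0.0804). It had 0 reads in flower buds 1 and 2, and 6.80 and 0.521 RPKM in flowers 3 and 4. In the falling direction Ca_TC09147 had 160 and 142 RPKM in the late buds, and 1.12 and 2.91 in the early flowers (log2 difference -5.72 ± 0.31, SE; limma, adjusted p = 0.00216). It was the only one of the 12 named transcripts whose limma call held in all 13 alternatives, with an adjusted p of at most 0.0144. Ca_TC29711 had 117 and 59.6 RPKM in the late buds, and 0.678 and 0.575 in the early flowers (log2 difference -5.70 ± 0.73, SE; limma, adjusted p = 0.00861; 0.0651 to 0.0895 without flower bud 3, flower 1 or flower 2). Its step of -0.96 between the buds lay just inside the limit of 1 for this class.

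Transcripts near absent on one side and present on the other were few. Below 1 RPKM in both late buds and at least 5 in both early flowers were 35 transcripts. These limits place every such transcript among those starting at flower 1, so their class is not a result. Their median was 0.193 RPKM in flower bud 3, 0.514 in flower bud 4, 10.1 in flower 1 and 8.78 in flower 2. In flower 4 the median was 2.08 RPKM, and 25 of the 35 still had at least 1. Of the 35, 30 reached 1 RPKM in at least 1 vegetative tissue, 27 of them in the germinating seedling. Over all tested transcripts, 97.5% reached 1 RPKM in a vegetative tissue. The matching share for the seedling alone was not counted, so the 27 are not read as a link to that tissue. In the other direction, 35 transcripts had at least 5 RPKM in both late buds and under 1 in both early flowers, and 21 of these had begun to fall in flower bud 4. Their median was 27.8 RPKM in flower bud 3, 9.36 in flower bud 4, 0.384 in flower 1 and 0.345 in flower 2. Of these, 14 reached 1 RPKM in a vegetative tissue, and 12 had 0 reads in all 3. The filter on low values acts unequally on the 2 sets, so their vegetative counts are not compared. limma called 32 of the higher and 34 of the lower set.

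Libraries that the rule did not use mostly showed the same directions. Flowers 3 and 4 were compared with flower buds 1 and 2 by the same rule, with no library shared, and 3482 of the tested transcripts were higher (11%) and 4776 lower (15%), with a median difference of -0.23. Of the 1870 transcripts higher in early flowers, 1122 (60.0%) were higher in this second comparison and 18 (0.963%) were lower. Of the 1584 lower, 1025 (64.7%) were again lower and 20 (1.26%) were higher. Among those that limma also called, 498 of 701 (71.0%) and 534 of 673 (79.3%) repeated. The limma spread also came from flower buds 1 and 2 and flowers 3 and 4, which favours transcripts with close values there. The higher repeat among limma calls is therefore not independent of this comparison. The repeat ran from 53.8% to 69.5% over the higher classes other than those with an opposite move, and from 56.2% to 80.9% over the lower ones, and in both directions was highest for the transcripts begun in flower bud 4. It was lowest, at 43.7% of 71 and 20.8% of 53, for transcripts that had moved the opposite way in flower bud 4.

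The highest of the 8 reproductive libraries was flower 1 for 470 of the higher transcripts, flower 2 for 599, flower 3 for 358 and flower 4 for 404. Flower bud 1 was the lowest library for 801 of them. For the lower transcripts the highest library was flower bud 3 in 581 cases, flower bud 4 in 351, flower bud 1 in 315 and flower bud 2 in 300, and the lowest was flower 3 in 524. Counting all 11 libraries, 228 of the higher transcripts (12.2%) were highest in the germinating seedling and 160 (8.56%) in the shoot apical meristem. By the rule, the late buds cannot be highest for a higher transcript, nor the early flowers for a lower one. The matching shares over all tested transcripts were not counted, so whether these counts are unusual is not known.

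Lists drawn from the 3 vegetative libraries alone divided between the directions to unlike degrees, most unevenly for the germinating seedling. They were counted over all 34760 transcripts, of which 5.4% were higher and 4.56% lower by the rule. Transcripts high in the germinating seedling (at least 5 RPKM there, and at least 2 on the log2 scale above both other vegetative tissues) numbered 837, and 168 of them (20.1%) were higher in early flowers and 50 (5.97%) lower, with a median difference of 0.18 against -0.05 over all transcripts. limma called 90 and 31. The 168 had a median of 26.7 RPKM in the seedling, 1.79 in flower bud 3, 3.52 in flower bud 4, 12.7 in flower 1 and 16.6 in flower 2. Of these, 100 started at flower 1 and 29 had begun in flower bud 4. Transcripts high in the shoot apical meristem numbered 789, with 75 (9.51%) higher and 37 (4.69%) lower, and limma called 16 in each direction. Those high in young leaves numbered 315, with 14 (4.44%) higher and 20 (6.35%) lower, against 5.4% and 4.56% over all transcripts. Their median difference was -0.26, and limma called 0 higher and 12 lower.

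Transcripts below 1 RPKM in all 3 vegetative tissues leaned the other way. There were 2499, and 199 of them (7.96%) were lower in early flowers and 95 (3.80%) higher, with a median difference of 0, since most were near 0 everywhere. Only 782 of the 2499 passed the filter on low values, and the rest could seldom meet the rule. The 3.80% beside 5.4% over all transcripts is therefore not read as a shortage. limma called 89 lower and 25 higher. The 199 had medians of 13.9 RPKM in flower bud 3, 7.12 in flower bud 4, 1.06 in flower 1 and 0.856 in flower 2, with 10.2 and 14.6 in flower buds 1 and 2. Of these, 70 had begun to differ in flower bud 4 and 105 started at flower 1. The 95 had medians of 0.597 and 2.55 RPKM in flower buds 3 and 4, and 11.3 and 12.7 in flowers 1 and 2. Of these, 41 had begun in flower bud 4 and 35 started at flower 1.

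**Figure D4:**
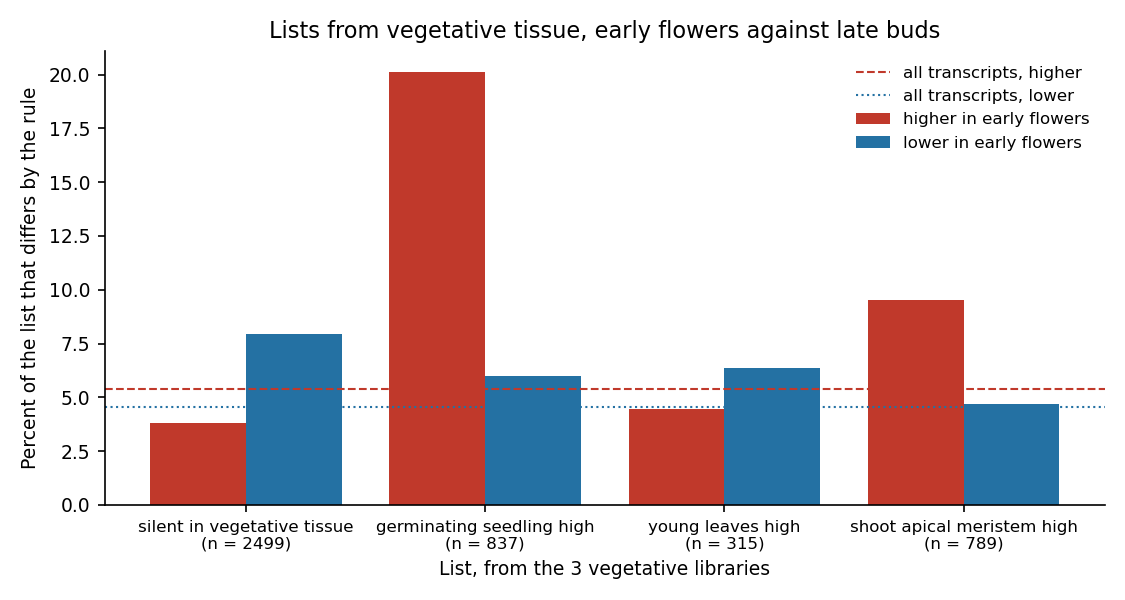
Percent of each list, drawn from the 3 vegetative libraries, that was higher or lower in early flowers than in late buds by the rule, with the share of all 34760 transcripts as dashed and dotted lines. The germinating seedling list stands at 20.1% higher, and transcripts silent in vegetative tissue at 7.96% lower. Only 782 of the 2499 silent transcripts passed the filter on low values, which holds down both of their shares.

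The higher transcripts made up a larger part of the early flower transcriptome than the lower ones did of the late buds. Their share of summed RPKM was 7.53% in flower bud 3, 6.97% in flower bud 4, 20.7% in flower 1 and 20.1% in flower 2. As a share of reads these were 4.69%, 5.32%, 15.2% and 15.4%. The lower transcripts held 8.63% and 8.26% of summed RPKM in the late buds, and 2.29% and 1.96% in the early flowers. These transcripts were chosen by the same libraries, so the shift of their shares between buds and flowers is not a separate result. With median-of-ratios scaling, the higher held 26.5% in flower 1 and the lower 7.98% in flower bud 3. With quantile normalization these were 14.6% and 10%, a narrower gap. The 292 higher transcripts begun in flower bud 4 went from 0.679% in flower bud 3 to 2.13%, 4.8% and 5.07% in the next 3 libraries, and were at 2.14% in flower 4. The 1018 starting at flower 1 went from 1.90% and 2.22% to 6.17% and 7.32%, and were at 7.66% in flower 4.

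A few very abundant transcripts set part of these shares. Among the 71 higher transcripts that were lower by at least 1 in flower bud 4 than in flower bud 3, the 7 with a mean of at least 1000 RPKM over the 4 libraries held 7.06% of summed RPKM in flower 1, 4.43% in flower 2, 3.77% in flower bud 3 and 1.19% in flower bud 4. They were chosen after their values were seen, and limma called none of them (adjusted p of 0.316 to 0.553). The same 7 stood at 6.15% in young leaves, 4.61% in flower bud 2, 1.05% in flower bud 1 and 1.1% in flower 4, so they differed between libraries of the same class as much as between buds and flowers. Without the 71, the share of the higher transcripts was 3.54% and 5.71% in the late buds, and 13.2% and 15.3% in the early flowers.

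**Figure D5:**
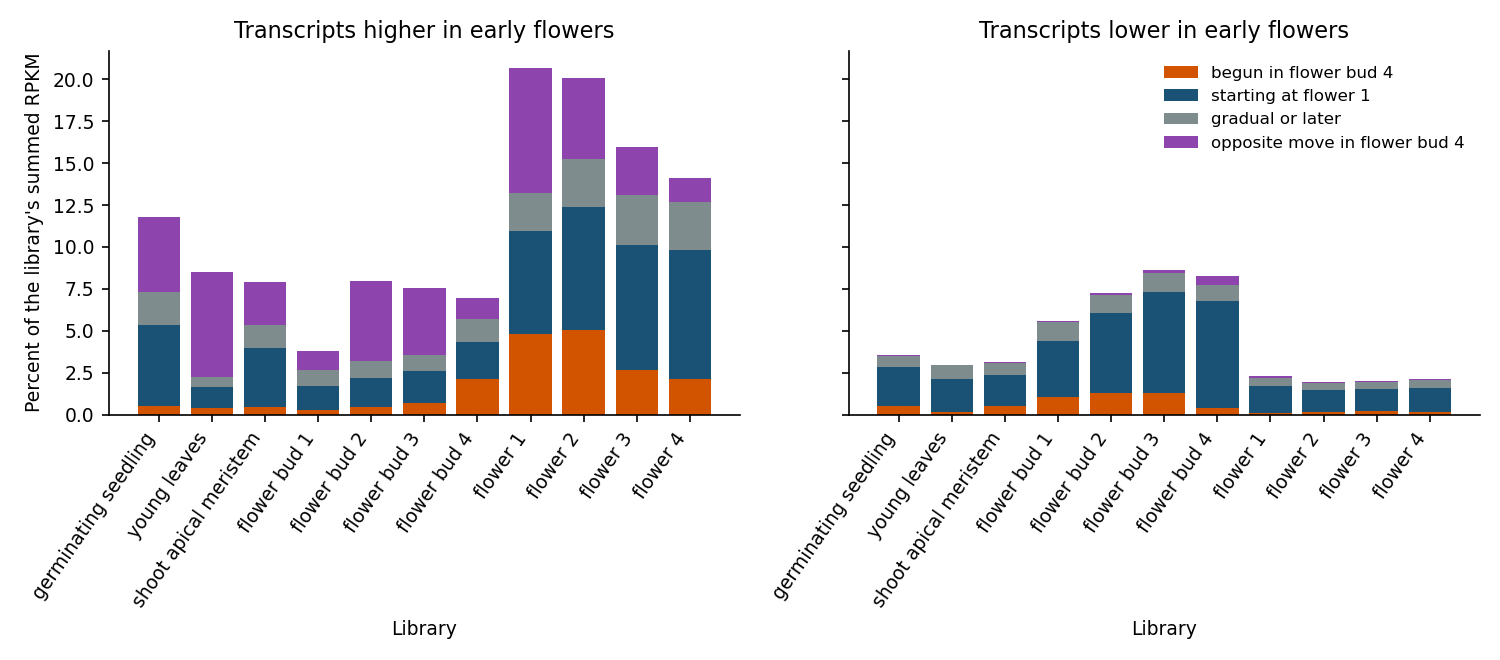
Percent of each library's summed RPKM held by the transcripts higher (left) and lower (right) in early flowers, stacked by where the change began. The higher transcripts hold 20.7% and 20.1% in flowers 1 and 2, and the 71 with an opposite move in flower bud 4 hold 7.43% in flower 1 and 6.28% in young leaves.

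The lower transcripts were short. Their median recovered length was 484 bases, against 702 for the higher and 788 for all tested transcripts, and 50.9% of them were under 500 bases, against 38.1% and 36.4%. The median was 284 bases for lower transcripts begun in flower bud 4 and 530 for those starting at flower 1. The median of the mean RPKM over the 11 libraries was 7.37 for lower, 10.3 for higher and 7.26 for all tested transcripts. In shorter transcripts the same RPKM rests on fewer reads, and the part of this in the difference was not tested.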

How the data were processed

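The mRNA of 11 chickpea samples was sequenced, with 1 library each. Per the series text, NGS QC Toolkit was used by the authors for read filtering, and they deposited RPKM for 34760 transcripts. How reads were aligned, and how those shared between transcripts were counted, is not given in the sources used here; near-identical transcripts are uncertain. The 128 blank rows of each file were left out. No ID matched the 29938 genes of the reference table.

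Library totals, lengths of at least 100 bases and whole reads were recovered from the RPKM values, for 34703 transcripts. The other 57 were at 0 throughout. Reads recovered in this way made up 99.952% to 99.998% of each total, and 11 of 11 totals and 99.94% of values were returned on 12000 simulated transcripts. Totals ran from 14536530 to 35643139 reads, so that a single read (1), with transcripts a median 736 bases long, stood for 0.0381 to 0.0935 RPKM. Floors (3 reads) and 95% exact intervals cover counting error only.

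Testing was limited to the 31776 transcripts reaching 1 RPKM in 3 or more of the 11 libraries. Differences are on the log2(RPKM + 1) scale, with a pseudocount of 1, which understates the change of low transcripts. limma 3.58.1 (R 4.3.3, intensity trend, two-sided) was fitted to the 8 reproductive libraries as 4 groups of 2, and a call needed an adjusted p under 0.05 and a difference of at least 1. On simulated data with 200 of 31776 transcripts changed, it recovered 59.5% at a log2 change of 1.5 (5.6% of calls false), 91% at 2 (8.1%) and 95.5% at 3 (5.9%). In the same simulations the rule called 1.55% to 1.65% of unchanged transcripts. The simulated libraries varied independently around the same mean for each unchanged transcript, without a trend over stages. These shares and the false calls of limma are therefore not error rates for the data, where the rule called 10.9% of tested transcripts. The changed transcripts were drawn from the more abundant ones only, so recovery of low transcripts was not tested. An exact permutation test of 2 against 2 cannot go below 0.333. Named transcripts are the 2 largest differences in each direction, overall and in each of the begun and starting classes, and the 2 most abundant, among those meeting the rule and limma. Lists and classes were chosen with earlier results of these data known. Alternatives were other scalings, pseudocounts, filters, fits, step sizes and leaving out each library.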

Additional observations from a re-analysis of the deposited data

How the results depend on the processing

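Recomputed under each alternative, 134 counts and shares stayed within 1.5 times the value reported and 86 did not. Differences of the 12 named transcripts kept their call in 129 cases, with none changing direction. They lost it in 27 cases, 24 of them on leaving out 1 library. Median-of-ratios scaling and quantile normalization moved no count by more than 1.5 times. Higher transcripts made up 54.1% of those meeting the rule as deposited, 60.1% (2097 higher, 1394 lower) and 57.4% (1997 and 1482) under these scalings, with the median difference moving from -0.06 to -0.01 and -0.03.

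The threshold of 1 acts on log2(RPKM + pseudocount), so counts followed the pseudocount. At 0.1 the lower transcripts numbered 2552, the begun 723 higher and 474 lower, the lower starting at flower 1 1470, the lower gradual or later 508, and the opposite moves 236 and 100. Steps were 2551 up and 2976 down into flower bud 4, 3069 and 2958 into flower 1, and 1407 and 938 into flower 2. Higher and lower shares were 10.6% and 15.0% for transcripts silent in vegetative tissue, 30.7% and 9.80% for the seedling list and 7.30% and 10.8% for young leaves, and the lower share was 8.11% for the meristem. At 5 the rule gave 882 higher and 691 lower, with 114 and 107 begun, 510 and 432 starting at flower 1, 240 and 136 gradual or later, and 18 and 16 opposite. Steps were 482 and 475, 701 and 630, and 69 and 18. Shares were 2.04% and 4.56% for the silent list, 2.54% and 3.81% for young leaves and 4.82% and 2.28% for the meristem, and the higher share of the seedling list was 10.5%.

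At a mean RPKM of at least 5, which tests fewer transcripts, the lower numbered 1037, with 179 begun, 198 gradual or later and 34 opposite, and the higher gradual or later 316. Steps were 728 and 869, 1152 and 968, and 219 and 44. The silent list stood at 15.4% and 31.2%, and the seedling list at 10.1% lower. With an RPKM of at least 1 in 3 libraries, an alternative chosen after seeing the data, the silent list stood at 11.4% and 25.2%. Such filters keep silent transcripts only where reproductive tissue is high, so these shares are not read as results. A difference of at least 2 left 373 higher and 344 lower.

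With a step of 0.5 there were 738 and 621 begun, 10 and 9 gradual or later, and 191 and 167 opposite. Where begun meant 0.25 of the way, these were 818 and 681, 144 and 103, and 284 and 251, with 624 and 549 starting at flower 1.

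limma called 425 higher and 423 lower with no filter, and 64 and 99 when all 11 libraries were fitted, where the vegetative tissues add their own spread. Fitting the 4 compared libraries gave 794 and 698, and voom on recovered reads 856 and 718. Leaving out 1 library gave 0 to 595 higher and 1 to 552 lower limma calls, and 1825 to 2679 higher and 1565 to 2600 lower by the rule, and the cause was not tested. Onset classes were not recomputed without a library, since each is defined by single libraries. No paired analysis was possible because the stage numbers name different stages and pair no libraries. Depth limits low transcripts: 3 reads at the median length of 736 bases were 0.114 to 0.164 RPKM in the 4 libraries.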
